A study of Mus musculus with 6 samples.

Results

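Selective autophagy removes chosen cargo, such as ubiquitinated protein aggregates or damaged organelles, by wrapping it in a double membrane that fuses with the lysosome. Small ubiquitin-like proteins of the ATG8 family (the LC3 and GABARAP subfamilies) are joined to the lipid of that membrane, and autophagy receptors bind cargo with one region and ATG8 proteins with another. In mouse cells the receptors studied here are Sqstm1 (p62), Optn (optineurin), Nbr1, Tax1bp1 and Calcoco1, and the ATG8 genes are Gabarap, Gabarapl1, Gabarapl2, Map1lc3a and Map1lc3b. p62 also binds KEAP1, the adaptor that marks the transcription factor NRF2 for degradation, and the Sqstm1 gene is itself a known NRF2 target.

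These 10 genes, 5 receptors and 5 ATG8 genes, were chosen by name, with earlier results of these data known. They were found by their NCBI Gene identifiers among 16315 genes of the deposited table. All 10 passed the filter on low values. The data are FPKM values (fragments scaled to transcript length and library size) of messenger RNA from B16F10, a pigmented melanoma line derived from a C57BL/6 mouse. One group of 3 libraries came from cells given SAS for 24 h, a compound the labels do not spell out, at 500 in a unit they write as μm. The other 3 came from cells given 0.05% DMSO as vehicle. The series is about blocking xCT, a chain of the cystine importer system xc-. The table names the SAS columns 24 h and the vehicle columns 0 h. The protocol gives 24 h of incubation for both, so a day of culture cannot be told apart from the compound if 0 h means cells collected earlier.

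The number of fragments behind each value is unknown. Per library, the FPKM values summed to 590238 to 617275, and 9746 to 9826 genes reached 1 FPKM. Melanocyte markers were present: all 7 of 7 listed (Pmel, Mlana, Dct, Tyrp1, Sox10, Tyr and Mitf) exceeded 1 FPKM on average, and their sum was 8730 to 10600 FPKM in SAS and 7410 to 8360 FPKM in vehicle. Of the listed markers of other cell types that the table held, 2 leukocyte, 4 fibroblast, 3 endothelial and 2 keratinocyte genes, only Cd68, which also encodes a lysosomal protein, averaged 1 FPKM or more. Cd68 stood at 3.92, 3.99 and 3.99 FPKM in SAS, against 2.22, 2.02 and 2.54 FPKM in vehicle, and the leukocyte sum was 3.92 to 4.01 FPKM in SAS and 2.02 to 2.54 FPKM in vehicle. The endothelial sum was 0.43 to 0.56 FPKM in SAS and 0.18 to 0.26 FPKM in vehicle. The part of these markers' cells in the results was not tested. The labels do not say that the replicates were separate cultures, so each p-value rests on the variation among these libraries alone, and that may be technical. In bulk RNA, fewer cells that express a gene and less RNA per cell cannot be told apart.

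All 5 ATG8 proteins are cut by ATG4 proteases behind a glycine near the end of the chain, and this glycine is then joined to the lipid. The ends of the coding sequences of 4 of them are shown because this site defines the family; capitals mark the last glycine codon, and each line runs to the stop codon (GENCODE M21 transcripts, GRCm38, sense strand).
Gabarap: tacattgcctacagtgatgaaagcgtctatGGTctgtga
Gabarapl1: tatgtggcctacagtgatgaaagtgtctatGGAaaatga
Gabarapl2: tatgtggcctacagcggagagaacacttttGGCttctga
Map1lc3a: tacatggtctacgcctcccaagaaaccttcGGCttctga
The glycine is codon 116 in the 3 GABARAP genes and codon 120 in Map1lc3a, and in these 4 genes a single codon follows it before the stop.

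The receptors reach ATG8 proteins through a short LC3-interacting region, whose core pairs an aromatic residue with a hydrophobic one. Stretches that encode this core, as known from the human proteins, are shown for 3 receptors, and capitals mark the 4 core codons. Tax1bp1 and Calcoco1 were not searched for it.
Sqstm1: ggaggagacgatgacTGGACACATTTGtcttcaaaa
Optn: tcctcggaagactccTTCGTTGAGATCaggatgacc
Nbr1: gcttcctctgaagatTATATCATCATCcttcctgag
The core spans codons 340 to 343 of Sqstm1, 188 to 191 of Optn and 750 to 753 of Nbr1. The stretch with which p62 binds KEAP1 lies a few codons further on, and capitals mark codons 349 to 355.
Sqstm1: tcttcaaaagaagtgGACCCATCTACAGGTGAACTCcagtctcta

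After SAS, 6 of the 10 genes were higher and 0 were lower: Optn, Gabarapl1, Sqstm1, Map1lc3a, Gabarap and Calcoco1 rose. Calls are a Benjamini-Hochberg adjusted p below 0.05 from limma, fitted on log2(FPKM + 1) over 10615 genes. Across all genes tested, 37.4% were called, 18.9% higher and 18.5% lower. Without adjustment, at a p below 0.05, 8 members were higher and 1 was lower. The members' median log2 fold change (SAS minus vehicle) was 0.269, against -0.0138 over all genes tested. In 8 of the 10 genes every SAS library was above every vehicle library, as in 24.5% of all genes tested, and in Tax1bp1 every SAS library was below, as in 24.9%. Only Nbr1 overlapped between the groups.

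**Figure D1:**
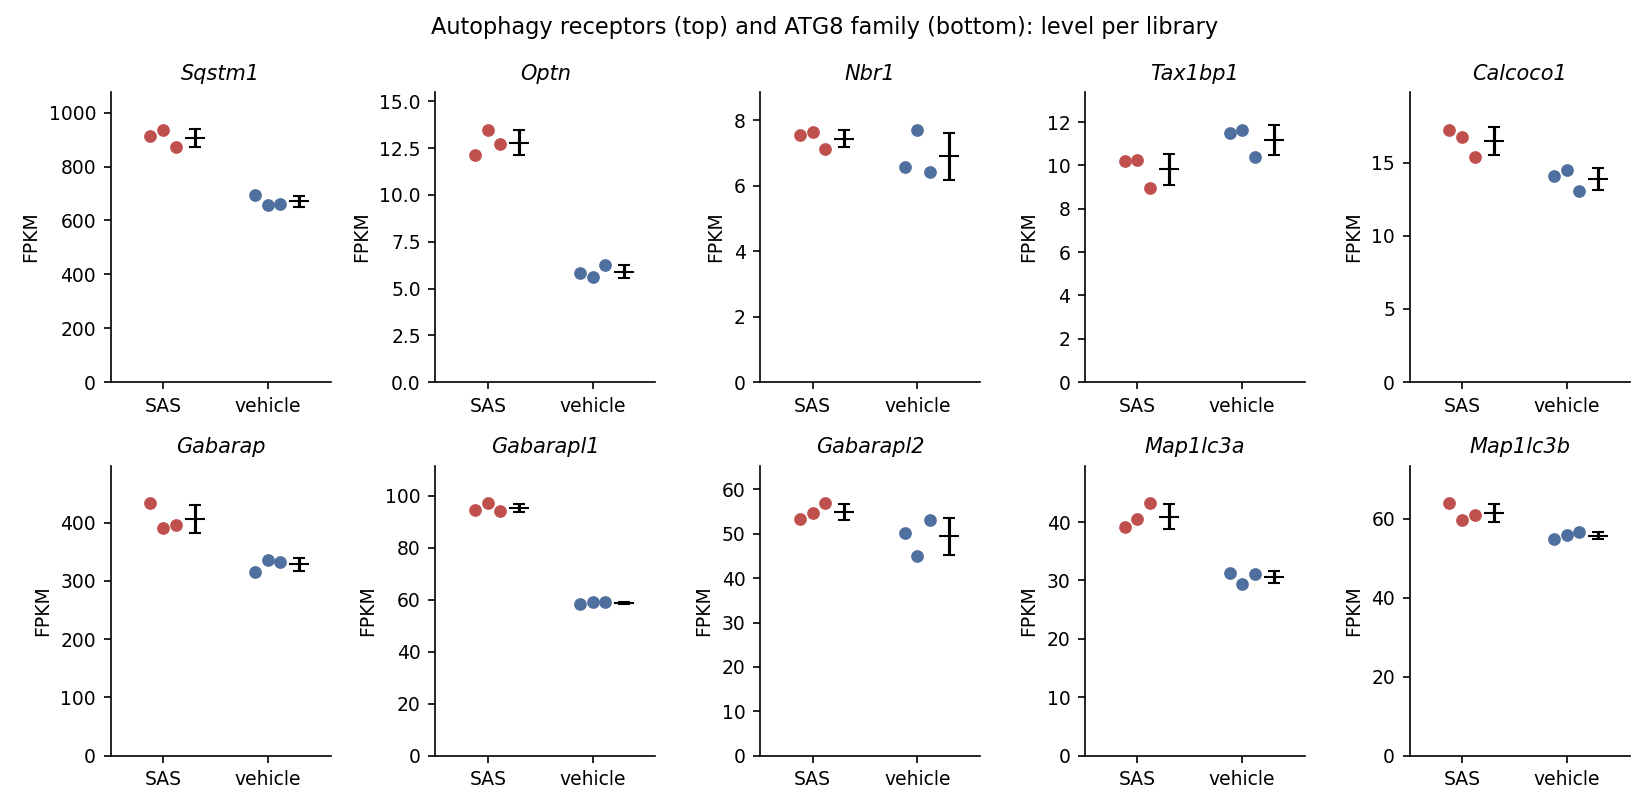
FPKM of each gene in each library, receptors in the top row and the ATG8 family in the bottom row, with the 3 SAS libraries left and the 3 vehicle libraries right; black bars are mean ± SD, and each axis starts at 0. Optn in SAS (12.15 to 13.47 FPKM) lies farthest above its vehicle values (5.61 to 6.26 FPKM), and Nbr1 overlaps.

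The product of Sqstm1 (NCBI Gene 18412) gathers ubiquitinated cargo into condensates and hands it to the forming membrane. Sqstm1 was by far the most abundant of the receptors studied here. It stood at 912.3, 936.39 and 871.71 FPKM in SAS replicates 1 to 3, against 694.84, 659.25 and 661.36 FPKM in vehicle replicates 1 to 3. All SAS libraries lay above all vehicle libraries. The mean was 907 ± 32.7 FPKM in SAS and 672 ± 19.97 FPKM in vehicle (SD, n = 3 in each group, here and below for every mean), a 1.35-fold difference. On the log2 scale the fold change was 0.43 (SE 0.06, limma adjusted p = 0.000199). By level it ranked 103rd of 16315 genes in SAS and 140th in vehicle.

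Optn (NCBI Gene 71648), a receptor for ubiquitinated mitochondria and bacteria whose binding to ATG8 proteins is strengthened by the kinase TBK1, had the highest log2 fold change of the 10. It stood at 12.15, 13.47 and 12.73 FPKM in SAS, against 5.85, 5.61 and 6.26 FPKM in vehicle. The lowest SAS library was thus well above the highest vehicle library. The means were 12.8 ± 0.662 FPKM in SAS and 5.91 ± 0.329 FPKM in vehicle (2.16-fold, log2 fold change 0.997, SE 0.07, limma adjusted p = 3.65e-06). This was the 45th highest log2 fold change among 10615 genes.

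Calcoco1, which serves as a receptor for endoplasmic reticulum and Golgi membranes, rose by a smaller step. It stood at 17.23, 16.77 and 15.39 FPKM in SAS, against 14.1, 14.47 and 13.04 FPKM in vehicle. The groups did not overlap, although the lowest SAS and the highest vehicle libraries were close. The log2 fold change was 0.23 (SE 0.07, limma adjusted p = 0.0198), and the call was lost when any of 4 libraries was left out. The adjusted p was 0.0548 without SAS replicate 1, 0.0553 without SAS replicate 2, 0.0518 without Vehicle replicate 1 and 0.0644 without Vehicle replicate 3.

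Nbr1, a p62 relative that binds ubiquitinated aggregates together with p62, did not pass. It stood at 7.55, 7.64 and 7.14 FPKM in SAS, against 6.56, 7.71 and 6.42 FPKM in vehicle, where replicate 2 exceeded every SAS library. The log2 fold change was 0.10 with a 95% interval of -0.07 to 0.27 (limma adjusted p = 0.335).

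Tax1bp1, a receptor that clears aggregates and, in human cells, brings ferritin to autophagosomes with NCOA4, was the only member with a negative value. It stood at 10.2, 10.26 and 8.98 FPKM in SAS, against 11.48, 11.64 and 10.4 FPKM in vehicle. The groups did not overlap, but SAS replicate 2 and Vehicle replicate 3 were nearly equal. The log2 fold change was -0.17 with a 95% interval of -0.33 to -0.01, and the call was missed (limma adjusted p = 0.0892). It passed as lower with quantile normalization (adjusted p = 0.0441), with a replicate block (adjusted p = 0.0409) and with array weights (adjusted p = 0.0242).

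The order of the receptors by level differed between the groups. In SAS it was Sqstm1, Calcoco1, Optn, Tax1bp1 and Nbr1, and in vehicle it was Sqstm1, Calcoco1, Tax1bp1, Nbr1 and Optn. In each group, the 3 libraries of each receptor did not overlap with those of the next in the order. Optn thus stood above Tax1bp1 and Nbr1 in SAS and below them in vehicle. The ratio of Optn to Tax1bp1 was 1.31 ± 0.113 in SAS and 0.531 ± 0.0628 in vehicle. That ratio, a log2 difference of 1.30, was higher in every SAS library than in any vehicle library (exact two-sided permutation p = 0.1, the smallest that 3 against 3 can give, and 0.1 adjusted over 5 ratios). The ratio of Sqstm1 to its relative Nbr1 was 122 ± 0.894 in SAS and 98.1 ± 11.04 in vehicle, also without overlap (log2 difference 0.32, exact permutation p = 0.1). Neither ratio could have passed 0.05 in a design of this size.

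Summed over the 5 receptors, the level was 953 ± 34.7 FPKM in SAS and 710 ± 20.1 FPKM in vehicle. Sqstm1 made up 95.1 ± 0.0425% of that sum in SAS and 94.7 ± 0.267% in vehicle. The other 4 receptors together came to 46.5 ± 2.02 FPKM in SAS and 37.8 ± 1.66 FPKM in vehicle.

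**Figure D2:**
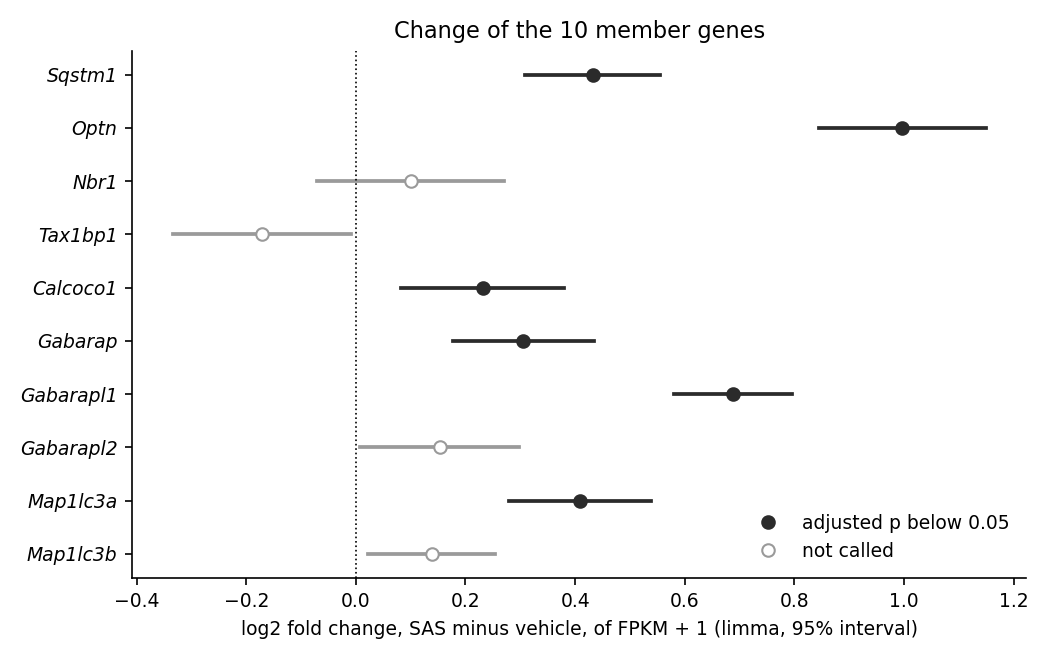
Log2 fold change (SAS minus vehicle, limma on FPKM + 1) of each gene with its 95% interval; filled black points passed an adjusted p of 0.05 and open grey points did not. Optn (0.997) and Gabarapl1 (0.69) lie farthest right, the intervals of Gabarapl2 and Map1lc3b lie just above 0, and Tax1bp1 (-0.17) is the only gene left of 0.

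In the ATG8 family, 3 of 5 genes rose and 0 fell, against 18.9% and 18.5% of all genes tested. All 5 had every SAS library above every vehicle library, as in 24.5% of all genes tested. Gabarapl1 (NCBI Gene 57436), which like the other GABARAP proteins acts in membrane growth and closure and in fusion with lysosomes, rose the most of the family. It stood at 94.7, 97.14 and 94.02 FPKM in SAS, against 58.3, 59.02 and 58.98 FPKM in vehicle. Within each group its libraries were nearly equal, and the gap between groups was many times the spread. The means were 95.3 ± 1.64 FPKM in SAS and 58.8 ± 0.405 FPKM in vehicle (1.62-fold, log2 fold change 0.69, SE 0.05, limma adjusted p = 4.25e-06). In the annotation, 377 exonic bases of Gabarapl1 overlap a noncoding transcript on the opposite strand, 1700101I11Rik. No label or header says whether the authors' counting used strand, so reads of the pair may not have been told apart.

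Gabarap (NCBI Gene 56486), the founding member of its subfamily, was the most abundant ATG8 gene. It stood at 432.95, 390.44 and 395.11 FPKM in SAS, against 315.55, 336.53 and 332.63 FPKM in vehicle. SAS replicate 1 was the highest library, and the groups did not overlap. The means were 406 ± 23.3 FPKM in SAS and 328 ± 11.2 FPKM in vehicle (1.24-fold, log2 fold change 0.31, SE 0.06, limma adjusted p = 0.00216).

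Gabarapl2, also known as GATE-16 and linked to traffic within the Golgi, was not called. It stood at 53.37, 54.58 and 56.86 FPKM in SAS, against 50.22, 44.91 and 53.1 FPKM in vehicle. Vehicle replicate 3 nearly reached the lowest SAS library. The log2 fold change was 0.15 with a 95% interval of 0.01 to 0.30 (limma adjusted p = 0.0906), and without Vehicle replicate 3 it passed (log2 fold change 0.21, adjusted p = 0.0377). Gabarapl2 also has processed copies: 17% of the 50-base windows of its transcript occur unchanged in transcripts of 4 other annotated genes, so its reads may be shared with them.

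In the LC3 subfamily, whose proteins act in membrane expansion and cargo capture, Map1lc3a rose while Map1lc3b did not pass. Map1lc3a (NCBI Gene 66734) stood at 39.11, 40.53 and 43.21 FPKM in SAS, against 31.27, 29.32 and 31.18 FPKM in vehicle. The means were 40.95 ± 2.08 FPKM in SAS and 30.6 ± 1.1 FPKM in vehicle (1.34-fold, log2 fold change 0.41 with an SE of 0.06, limma adjusted p = 0.000392). The groups lay clearly apart.

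Map1lc3b, the gene of the LC3 protein most often used as an autophagosome marker, stood at 63.86, 59.52 and 60.81 FPKM in SAS, against 54.76, 55.73 and 56.56 FPKM in vehicle. The groups did not overlap, but the difference was small. The log2 fold change was 0.14 with a 95% interval of 0.02 to 0.25 (limma adjusted p = 0.0586). It passed with array weights (adjusted p = 0.0293) and, narrowly, without a filter on low values (adjusted p = 0.0499). Of its transcript's 50-base windows, 13.8% occur in transcripts of other genes, pseudogenes and repeats among them.

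By level, the family ran in the order Gabarap, Gabarapl1, Map1lc3b, Gabarapl2 and Map1lc3a in both groups, and no neighbours in that order overlapped within a group. Gabarapl1 and the gene after it, Map1lc3b, lay at 95.3 and 61.4 FPKM in SAS and at 58.8 and 55.7 FPKM in vehicle. The 5 genes summed to 683.99, 642.21 and 650.01 FPKM in SAS, against 510.1, 525.51 and 532.45 FPKM in vehicle (1.26-fold, exact permutation p = 0.1, the smallest possible).

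Gabarapl1 held a larger share of that sum in every SAS library than in any vehicle library, and Map1lc3b a smaller one. The share of Gabarapl1 was 14.5 ± 0.64% in SAS and 11.2 ± 0.176% in vehicle, and the share of Map1lc3b was 9.32 ± 0.0459% in SAS and 10.7 ± 0.0706% in vehicle. Neither share overlapped between the groups (exact permutation p = 0.1 each). The other 3 shares overlapped: Gabarap held 61.6 ± 1.45% in SAS and 62.8 ± 1.12% in vehicle, Gabarapl2 8.35 ± 0.49% and 9.45 ± 0.789%, and Map1lc3a 6.23 ± 0.471% and 5.86 ± 0.275%.

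Ratios within a library are not affected by its scaling. The ratio of Gabarapl1 to Gabarapl2 was 1.74 ± 0.0714 in SAS and 1.2 ± 0.106 in vehicle (log2 difference 0.54). The ratio of Map1lc3b to Map1lc3a was 1.5 ± 0.117 in SAS and 1.82 ± 0.0751 in vehicle (log2 difference -0.28). The ratio of the GABARAP to the LC3 subfamily was 5.44 ± 0.197 in SAS and 5.06 ± 0.125 in vehicle (log2 difference 0.10). None of these 3 ratios overlapped between the groups, each with an exact permutation p = 0.1, and 0.1 adjusted over the 5 ratios. The coding sequences of these pairs are related but not near-identical: Map1lc3a and Map1lc3b share 77.5% of aligned bases, Gabarap and Gabarapl1 74.9%, and Gabarapl1 and Gabarapl2 64.9%. No 50-base window of Gabarap, Map1lc3a, Sqstm1, Nbr1 or Calcoco1 occurs in a transcript of another gene. For Optn 0.975% and for Tax1bp1 2.41% of the windows do. In the annotation, Optn, Tax1bp1 and Map1lc3b overlap a gene on the opposite strand by 73, 127 and 58 exonic bases.

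**Figure D3:**
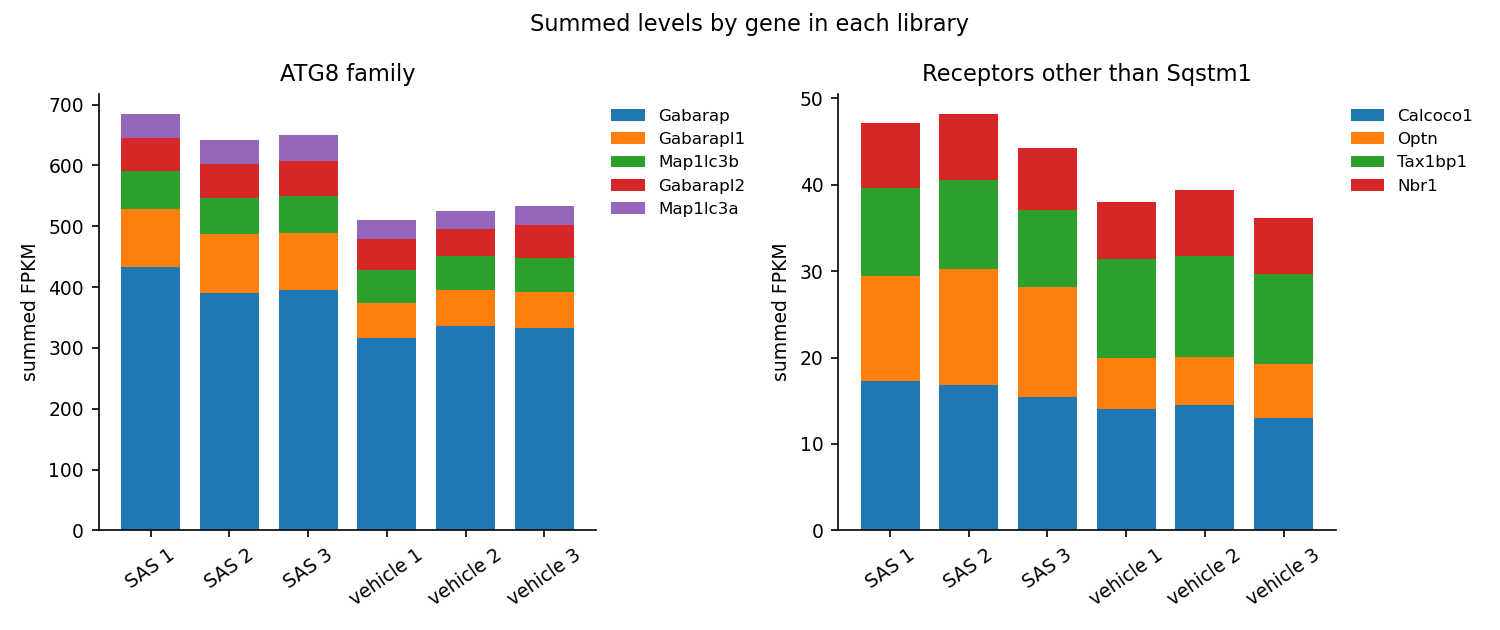
Stacked FPKM of the 5 ATG8 genes (left) and of the 4 receptors other than Sqstm1 (right) in each library, SAS libraries left of vehicle libraries. Gabarap is the largest part of every ATG8 bar, the Gabarapl1 part is thicker in SAS (94.02 to 97.14 FPKM) than in vehicle (58.3 to 59.02 FPKM), and the Optn part of the receptor bars is thicker in SAS.

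Optn and Gabarapl1, the members with the highest log2 fold change in each family, were compared with 6870 other named genes of at least 5 FPKM by the root mean square difference of log2(FPKM + 1), centred on the vehicle mean, over the 6 libraries. The nearest to Optn were the melanocortin receptor Mc1r (0.0538), the microtubule end-binding protein Mapre3 (0.066) and Nat9 (0.068). Mc1r averaged 99.03 ± 4.39 FPKM in SAS and 48.4 ± 2.49 FPKM in vehicle. The nearest to Gabarapl1 were the actin-severing protein gelsolin (Gsn, 0.033), the N-acetylglucosamine kinase Nagk (0.0342) and the ubiquitin ligase Nedd4l (0.035). Gsn averaged 64.6 ± 1.1496 FPKM in SAS and 39.6 ± 1.19 FPKM in vehicle. With 6 libraries in 2 groups, this likeness mostly ranks genes by the size of the difference between groups.

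Promoters of RefSeq genes (GRCm38.p6, 250 bases before to 50 after a start) were searched on both strands for motifs of factors known to act on these genes; the table held 11 promoters of 9 members, those other than Map1lc3a. The core of the antioxidant response element that NRF2 binds, TGACNNNGC, was found in 2 members, Tax1bp1 and Map1lc3b, and in 12.4% of all 32851 promoters. Both windows are shown in the direction of transcription with the core in capitals.
Tax1bp1, chr6:52713950-52713978, plus strand: gtctccgtggTGACGAAGCtctctttccc
Map1lc3b, chr8:121590432-121590460, plus strand: gcgagtcaccTGACTCGGCtgcggactga
In the main fit neither of these genes was called, and whether NRF2 acts on them was not tested. The E-box core TCACGTG of the lysosomal CLEAR element was in none of the 11 promoters and in 3.77% of all, the FOXO site GTAAACA in none and in 3.65%, and the ATF4 element core TGATGNAA in none and in 3.97%. No match says only that these letters are not in these windows.

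The receptors and ATG8 proteins work with a larger set of autophagy genes. Of 101 such genes in 6 lists, 98 were tested, 22 rose and 8 fell (30.6% called, against 37.4% of all genes tested). The count that fell was 5 without SAS replicate 3 and also 5 without Vehicle replicate 2. Their median log2 fold change was 0.0671. Rb1cc1, a subunit of the kinase complex that starts autophagy, Stbd1 and Calcoco2 were under the filter of 0.5 FPKM on average.

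Of other selective autophagy receptors, 4 of 18 tested rose and 1 fell (22.2% and 5.56%, against 18.9% and 18.5% of all genes tested). Their median log2 fold change was 0.0528. Tex264, a receptor for endoplasmic reticulum, averaged 84.4 ± 5.49 FPKM in SAS and 67.7 ± 5.21 FPKM in vehicle (limma adjusted p = 0.00438, log2 fold change 0.31, SE 0.07). Bnip3, a mitochondrial receptor, averaged 53.8 ± 2.88 FPKM in SAS and 38.5 ± 13.2 FPKM in vehicle, with overlapping groups. Its adjusted p of 0.0351 became 0.0642 without SAS replicate 1, 0.054 without SAS replicate 2 and 0.0747 without SAS replicate 3. It was 0.084 without Vehicle replicate 1 and 0.12 without Vehicle replicate 2, where the log2 fold change dropped to 0.30, against 0.52 with all libraries. Ccpg1, another receptor for endoplasmic reticulum (adjusted p = 0.0329), and Fundc1 on mitochondria (adjusted p = 0.0493) also lost the call with single libraries left out. So did the mitochondrial inner membrane protein Phb2, which fell (adjusted p = 0.0106). Leaving out a library also lowered the number of calls over all genes, from 3969 to between 2899 and 3768. The call of Ccpg1 was lost without any SAS library (adjusted p = 0.0633, 0.0529 and 0.0886 without replicates 1, 2 and 3) or Vehicle replicate 1 (0.161). That of Fundc1 was lost without SAS replicates 1 and 3 (0.137 and 0.154) and without Vehicle replicates 1, 2 and 3 (0.13, 0.129 and 0.06). That of Phb2 was lost without Vehicle replicate 1 (0.0621).

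Of genes that process and conjugate ATG8 proteins, 2 of 12 tested rose and 2 fell (16.7% each, near the 18.9% and 18.5% of all genes tested), with a median log2 fold change of 0.0461. Tecpr1, which binds ATG5 and helps autophagosomes mature, rose to 109 ± 5.87 FPKM in SAS, against 86.5 ± 2.79 FPKM in vehicle (log2 fold change 0.33 with an SE of 0.06, limma adjusted p = 0.0011). Atg3, the enzyme that transfers ATG8 to lipid, fell to 30.2 ± 0.532 FPKM in SAS, against 35.8 ± 1.26 FPKM in vehicle (log2 fold change -0.24, SE 0.05, adjusted p = 0.00586). Atg7, which activates ATG8, averaged 21.9 ± 0.431 FPKM in SAS and 19.1 ± 0.722 FPKM in vehicle (adjusted p = 0.0217). That call was lost without SAS replicate 3 (adjusted p = 0.0573) and without Vehicle replicates 2 and 3 (0.0713 and 0.0588). The protease gene Atg4d averaged 22.2 ± 0.871 FPKM in SAS and 25.6 ± 0.719 FPKM in vehicle (adjusted p = 0.0201), a call lost without SAS replicates 1 and 3 (0.0525 and 0.052) and Vehicle replicates 2 and 3 (0.0703 and 0.0506).

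Of genes of initiation, nucleation and membrane supply, 3 of 22 tested rose and 2 fell, with a median log2 fold change of 0.104. The shares that rose and fell were 13.6% and 9.09%, against 18.9% and 18.5% of all genes tested. Atg9a, the membrane protein of the vesicles that seed autophagosomes, averaged 50.7 ± 6.03 FPKM in SAS and 40.4 ± 2.99 FPKM in vehicle (log2 fold change 0.32 with an SE of 0.08, limma adjusted p = 0.0116). Ulk1, the starting kinase, averaged 8.42 ± 0.426 FPKM in SAS and 10.1 ± 0.42 FPKM in vehicle (adjusted p = 0.016), a call lost without SAS replicate 3 (0.05005) and Vehicle replicate 2 (0.0643). Zfyve1, whose product marks the membrane where autophagosomes form, was called higher (adjusted p = 0.0199) but not without SAS replicates 2 and 3 (0.0702 and 0.0554) or Vehicle replicate 1 (0.0824). Vmp1, a lipid scramblase, was called higher (adjusted p = 0.044) but not without SAS replicates 1 and 3 (0.0891 and 0.129) or Vehicle replicates 1 and 2 (0.141 and 0.168). Atg101, a subunit of the kinase complex, was called lower (adjusted p = 0.0485) but not without SAS replicates 2 and 3 (0.121 and 0.166) or any vehicle library (0.117, 0.0662 and 0.128 without replicates 1, 2 and 3).

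Of genes of fusion with the lysosome, 7 of 13 tested rose (53.8%, against 18.9% of all genes tested) and 0 fell in limma, also without adjustment at a p below 0.05. Their median log2 fold change was 0.209. Like the other lists, this one was chosen with earlier results of these data known. Plekhm1, an adaptor that joins RAB7, the HOPS tethering complex and ATG8 proteins, stood at 25.6, 26.91 and 25.82 FPKM in SAS, against 16.61, 17.49 and 15.77 FPKM in vehicle. The groups lay far apart relative to their spread (log2 fold change 0.62 with an SE of 0.06, limma adjusted p = 3.22e-05). The HOPS subunits Vps39 and Vps18 rose to 14.6 ± 0.656 and 16.9 ± 0.48 FPKM in SAS, against 10.5 ± 0.295 and 12.7 ± 0.395 FPKM in vehicle. The fusion protein Vamp8 rose to 238 ± 19.5 FPKM in SAS, against 183 ± 9.45 FPKM in vehicle (log2 fold change 0.37, adjusted p = 0.00148). In 9 of the 13 genes every SAS library was above every vehicle library, as in 24.5% of all genes tested. In Rab7 every SAS library was below, as in 24.9%. Rab7 averaged 306 ± 7.5 FPKM in SAS and 330 ± 4.42 FPKM in vehicle and was not called (adjusted p = 0.119). The count of 7 was 5 without SAS replicate 1, without SAS replicate 2 or without Vehicle replicate 3, and 6 without any other library. The calls lost were those of the fusion protein Snap29 (adjusted p = 0.0288) and the tethering subunit Vps11 (adjusted p = 0.0389). Snap29 was not called without SAS replicates 1, 2 and 3 (0.0647, 0.056 and 0.0594) or Vehicle replicates 1 and 3 (0.0899 and 0.0863). Vps11 was not called without SAS replicates 1 and 2 (0.0721 and 0.135) or Vehicle replicates 2 and 3 (0.139 and 0.0802).

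Among partners and kinases of the receptors, 3 of 15 tested rose and 1 fell (20% and 6.67%, against 18.9% and 18.5% of all genes tested). Their median log2 fold change was 0.0275. Pink1, the kinase that marks damaged mitochondria for removal by OPTN and other receptors, stood at 15.63, 16.29 and 15.87 FPKM in SAS, against 11.77, 11.62 and 11.21 FPKM in vehicle (log2 fold change 0.43 with an SE of 0.06, limma adjusted p = 0.000279). Myo6, a motor that binds optineurin, stood at 3.18 ± 0.0945 FPKM in SAS and 2.25 ± 0.326 FPKM in vehicle (adjusted p = 0.00466). Both genes had all SAS libraries above all vehicle libraries. Map3k3, a kinase with a domain of the kind through which p62 binds, fell to 13.7 ± 1.59 FPKM in SAS, against 17.4 ± 0.614 FPKM in vehicle (adjusted p = 0.00824).

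Tbk1, which phosphorylates optineurin and p62, was not called at 3.75 ± 0.123 FPKM in SAS and 3.21 ± 0.188 FPKM in vehicle (log2 fold change 0.17, limma adjusted p = 0.0672). It passed with size factors (adjusted p = 0.0488), quantile normalization (0.0358), no trend (0.0465) and array weights (0.035). Keap1, which p62 binds, averaged 25.05 ± 1.12 FPKM in SAS and 22.1 ± 1.85 FPKM in vehicle (log2 fold change 0.17, adjusted p = 0.0691, and 0.0418 without Vehicle replicate 1). Nfe2l2, the gene of NRF2, averaged 35.9 ± 2.94 FPKM in SAS and 33.4 ± 5.64 FPKM in vehicle, with a 95% interval of the log2 fold change of -0.12 to 0.34 (adjusted p = 0.425).

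Of transcriptional and nutrient regulators of autophagy, 3 of 18 tested rose and 2 fell, with a median log2 fold change of 0.0352. The shares that rose and fell were 16.7% and 11.1%, against 18.9% and 18.5% of all genes tested. Tfe3, a factor that binds the CLEAR element, rose to 35.65 ± 0.0794 FPKM in SAS, against 29.9 ± 1.4 FPKM in vehicle (log2 fold change 0.25 with an SE of 0.06, limma adjusted p = 0.00542). Its relative Tfeb averaged 16.6 ± 1.06 FPKM in SAS and 15.5 ± 0.864 FPKM in vehicle, with overlapping groups (adjusted p = 0.302). Foxo4 fell to 15.3 ± 0.732 FPKM in SAS, against 19.7 ± 0.515 FPKM in vehicle (adjusted p = 0.00142). Sesn2, a leucine sensor that restrains mTORC1, fell to 14.1 ± 0.233 FPKM in SAS, against 17.9 ± 0.657 FPKM in vehicle (adjusted p = 0.00156). Prkaa1, a catalytic subunit of AMPK, was called higher (adjusted p = 0.0157) but not without SAS replicate 2 (0.0547) or Vehicle replicates 1 and 3 (0.0544 and 0.0539). The melanocyte factor Mitf was called higher (adjusted p = 0.0214) but not without SAS replicates 2 and 3 (0.0557 and 0.069) or Vehicle replicates 1 and 3 (0.101 and 0.0518).

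Several of the weaker calls among these lists also ended under other settings of the limma fit. Without a filter on low values, Bnip3, Fundc1, Ccpg1, Vmp1, Atg101, Vps11 and Mitf were not called (adjusted p = 0.132, 0.107, 0.0758, 0.102, 0.0904, 0.0782 and 0.0615). With quantile normalization, Fundc1, Phb2, Atg101 and Vps11 were not called (0.0739, 0.0722, 0.0517 and 0.0503), and with size factors Fundc1, Vmp1 and Atg101 were not (0.0524, 0.0548 and 0.0696). Vmp1 and Atg101 also missed without the intensity trend (0.0577 and 0.0654), Atg101 with a pseudocount of 0.1 (0.05002), Bnip3 with robust estimation (0.14) and Vps11 with array weights (0.0792).

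**Figure D4:**
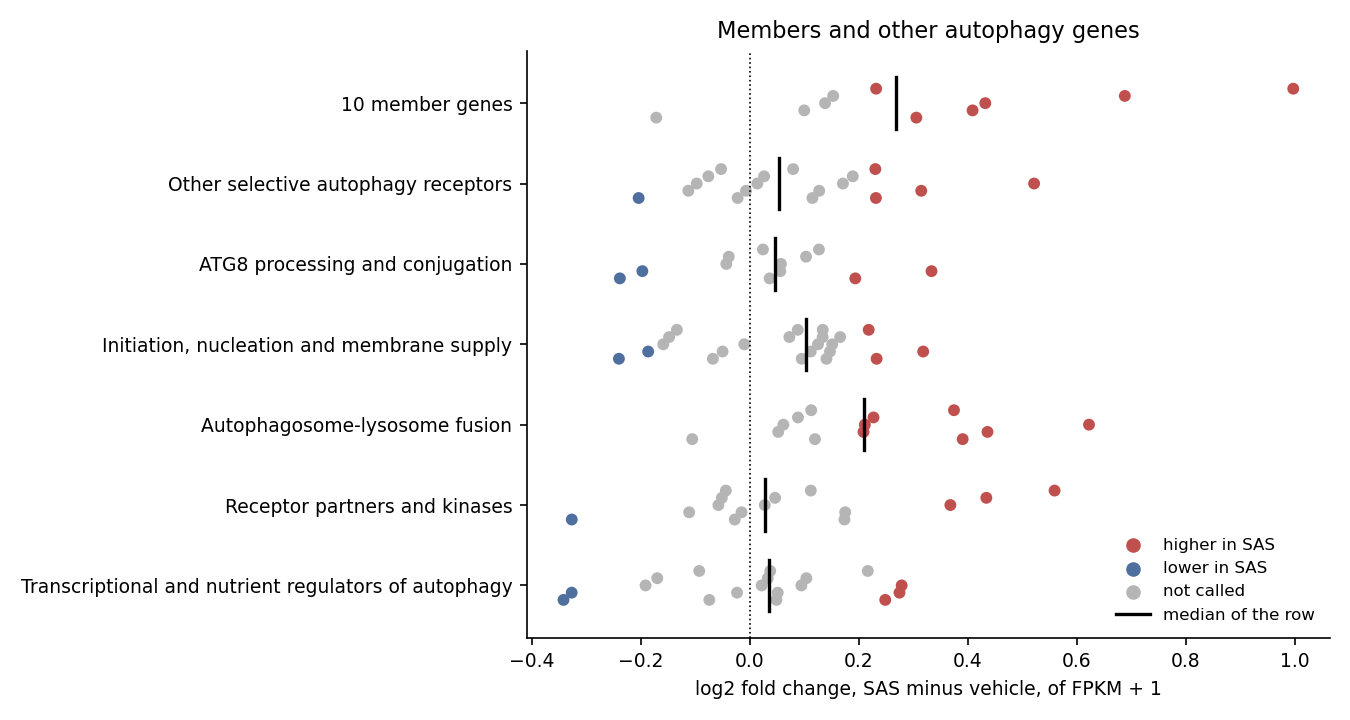
Log2 fold change (SAS minus vehicle, FPKM + 1) of each tested gene, with the 10 receptor and ATG8 genes in the top row and the 6 lists of other autophagy genes beneath; red points were called higher in SAS, blue points lower, grey points were not called, and the black line is the row's median. The medians of the top row (0.269) and of the fusion list (0.209) lie farthest right, and every row holds points on either side of 0.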

How the data were processed

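The authors deposited 1 table of FPKM values with 2 decimals and 1 column per library, per the file headers. The submitters' processing notes list FastQC, HISAT and Bowtie2 and give neither version nor role. Which program made the FPKM values, on which build and gene models, is not stated there. SAS columns were matched by the labelled 24 h and vehicle columns by elimination. Symbols came from RefSeq (GRCm38.p6) for 16206 of 16315 Gene identifiers.

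The main comparison was a limma fit (version 3.58.1, R 4.3.3) of log2(FPKM + 1) with a trended prior variance. It covered the 10615 genes whose average reached 0.5 FPKM. A gene that was not called may still differ. In a check on simulated data the fit missed most changes of 1.2-fold. Far fewer genes were changed there than were called here, which makes the adjusted threshold stricter. How often such changes are missed in these data is therefore not known. Fold changes on this scale are understated for low genes. Ratios and shares used two-sided exact permutation tests over 20 relabellings. Alternatives changed the pseudocount, filter, scaling, variance model, block or libraries. Sequences came from GENCODE M21 (longest principal transcript) and RefSeq promoters, read with Python 3.11.15 and aligned with Biopython 1.88.

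All members are named, and in each list up to 4 called genes with the largest changes, plus Tbk1, Keap1, Nfe2l2, Tfeb, Tfe3 and Atg7. Phb2, Atg101, Snap29 and Vps11 were added after their values were seen. Members and lists were chosen with earlier results of these data known. One called gene of the partner list and 1 coding sequence are not reported here.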

Additional observations from a re-analysis of the deposited data

How the results depend on the processing

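Across 17 alternatives, Sqstm1, Optn, Gabarap, Gabarapl1 and Map1lc3a stayed higher in SAS and Nbr1 stayed uncalled; no member changed direction. The count of members lower in SAS was 1 (Tax1bp1), against 0, with quantile normalization, with a replicate block and with array weights. The count higher was 5 to 6 with single libraries left out and 6 to 7 otherwise. Over all genes tested, 1510 to 1935 were higher with single libraries left out, against 2006. The count lower over all genes was 1332 to 1897 in those fits, against 1963. Of other autophagy genes, the count lower was 5 to 8 with single libraries left out (5 without SAS replicate 3 and 5 without Vehicle replicate 2), against 8, and 7 to 12 otherwise; the count higher was 15 to 17 with single libraries left out and 16 to 25 otherwise, against 22. Of the 30 called, 14 lost the call in at least 1 alternative and none reversed, and 11 uncalled genes gained one. Whether the replicate numbers pair the libraries could not be settled. Deviations of same-numbered libraries correlated at -0.08, 0.145 and 0.234, within the range of differently numbered ones (-0.406 to 0.347). With the block, 4345 genes were called, against 3969, and the 5 ratios gave an exact sign-flip p = 0.25 each, the smallest that 3 pairs allow. Fragments per gene are unknown, so counting error cannot be given.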
